A study of Homo sapiens with 12 samples.

Results

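The mRNAs of 9 feedback inhibitors of MAP-kinase signaling, DUSP1, DUSP2, DUSP4, DUSP5, DUSP6, SPRY2, SPRY4, SPRED1 and SPRED2, were followed through RNA immunoprecipitates of Argonaute 2 (AGO2) from the human erythroleukemia line K562. They were chosen by name, and each has 1 row of its own among the 61782 rows of the deposited tables, with 0 of the 9 rows joined to an overlapping gene. Per the methods the cells were K562-C/EBPα-ER, a K562 line with an estradiol-inducible C/EBPα, whereas the labels name K562 alone and no estradiol treatment. By the labels of the 12 samples, cells were infected with a lentivirus carrying a fluorescent marker and then selected with puromycin, in which the parent line was already grown per the methods. They carried either pLV-miR-143, which overexpresses miR-143 (miR143), or the pLV-control vector (control), so that the microRNA is expressed from a vector. Each population was precipitated with an antibody to AGO2 (AGO) or with unspecific immunoglobulin as a mock precipitate (IgG), giving the 4 groups control_IgG, control_AGO, miR143_IgG and miR143_AGO with 3 samples each and 12 samples in all. The values are the authors' averages, 1 per gene and group, in FPKM (fragments per kilobase of transcript, scaled to library size), so that levels are per length. No spread between replicates, no SD and no test could be given, and each ratio below compares 2 averages without a replicate check.

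The ERK cascade passes a growth signal from RAS through RAF and MEK kinases to ERK, and ERK in turn induces the genes that shut it off. Dual-specificity phosphatases (DUSP) remove the activating phosphates from MAP kinases, and Sprouty (SPRY) and Sprouty-related (SPRED) proteins restrain the pathway at the level of RAS and RAF. Many of these mRNAs are short-lived, and AU-rich pentamers and microRNA seed sites in their 3′ UTRs are known means of their control. In K562 the fusion kinase BCR-ABL1 keeps the cascade active.

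AGO2 holds a microRNA, whose seed (bases 2 to 8) pairs with complementary sites mainly in 3′ UTRs. The mature sequences of miR-143-3p (chr5:149428978-149428998, plus strand), the overexpressed microRNA, and of 10 others were taken from RefSeq (GRCh38.p14), and no seed is shared among the 11. The longest annotated 3′ UTR of each gene (GENCODE 29, GRCh38) was searched on the mRNA strand for the 8mer TCATCTCA, the 7mer-m8 TCATCTC and the 7mer-A1 CATCTCA, each site counted once under its longest form. Of the 9 genes 2 held such a site, SPRY4 and DUSP4, a share like the 22.2% of the 3′ UTRs of 19114 coding genes. SPRY4 held 1 site, a 7mer-A1 at bases 507 to 513 of a 3′ UTR of 3782 bases, and 44.7% of 3′ UTRs within 20% of that length held at least 1. The microRNA is shown with its seed in capitals and the SPRY4 site, on the minus strand at chr5:142313684-142313713, with the matching bases in capitals.
miR-143-3p: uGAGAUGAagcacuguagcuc
SPRY4 site: ttctccttcccCATCTCActccaccccact

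Of the other microRNAs, miR-143-5p is the opposite arm of the overexpressed hairpin and had 0 sites in the 9 genes, where 23.3% of all 3′ UTRs held at least 1. The rest were picked as abundant in K562 or published for genes of these families, and together the 11 had 37 sites in the 9 genes, of which 9 were 8mers. SPRED1 had 8 sites, SPRY4 had 7, DUSP5 and DUSP6 had 5 each, DUSP4 had 4, DUSP1 had 3, DUSP2 and SPRY2 had 2 each and SPRED2 had 1. Both sites of SPRY2 were 8mers, for miR-21-5p and miR-27a-3p, and miR-21-5p sites occurred in 5.49% of 3′ UTRs of like length. DUSP5, the member with the highest AGO level below, held an 8mer for miR-92a-3p, found with any site in 12.9% of 3′ UTRs of like length. SPRED1 held a 7mer-A1 for miR-126-3p, whose sites are rare, in 1.10% of all 3′ UTRs and 3.56% of those of like length. Seeds and matching bases are again in capitals. The SPRY2 stretch is chr13:80336504-80336533 (minus strand), the DUSP5 stretch chr10:110510494-110510523 (plus strand) and the SPRED1 stretch chr15:38352178-38352207 (plus strand). A match describes these letters only and not occupancy.
miR-21-5p: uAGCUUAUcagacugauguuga
SPRY2 site: ccatgtattgcATAAGCTAaagcaacacag
miR-92a-3p: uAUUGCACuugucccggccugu
DUSP5 site: atttcatacctGTGCAATActgaagacctc
miR-126-3p: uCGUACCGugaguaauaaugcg
SPRED1 site: actaaatgtaaGGTACGAattattacatat

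The pentamer ATTTA, the core of AU-rich decay elements, was counted with overlaps on the mRNA strand and occurred in 67.6% of all 3′ UTRs. It was found in 8 of the 9 genes. SPRED1 held 24 copies in 5585 bases, and only 6.54% of the 1039 3′ UTRs of like length had as many. DUSP1 held 4 copies in 672 bases, as many as 8.81% of its length class, whereas SPRY4 with 8, SPRED2 with 5 and DUSP4 with 6 were near the medians of 8, 5 and 8 of theirs. DUSP6 held 1 and DUSP5 held 0, where 76.1% of 2348 3′ UTRs of like length had at least 1. The densest windows of DUSP1 (chr5:172768651-172768680, minus strand) and SPRED1 (chr15:38353337-38353366, plus strand) are shown with the pentamers in capitals.
DUSP1 window: ggctcgagagggctggtccttATTTATTTA
SPRED1 window: tactttttttaagaaagcATTTAtATTTAt

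**Figure D1:**
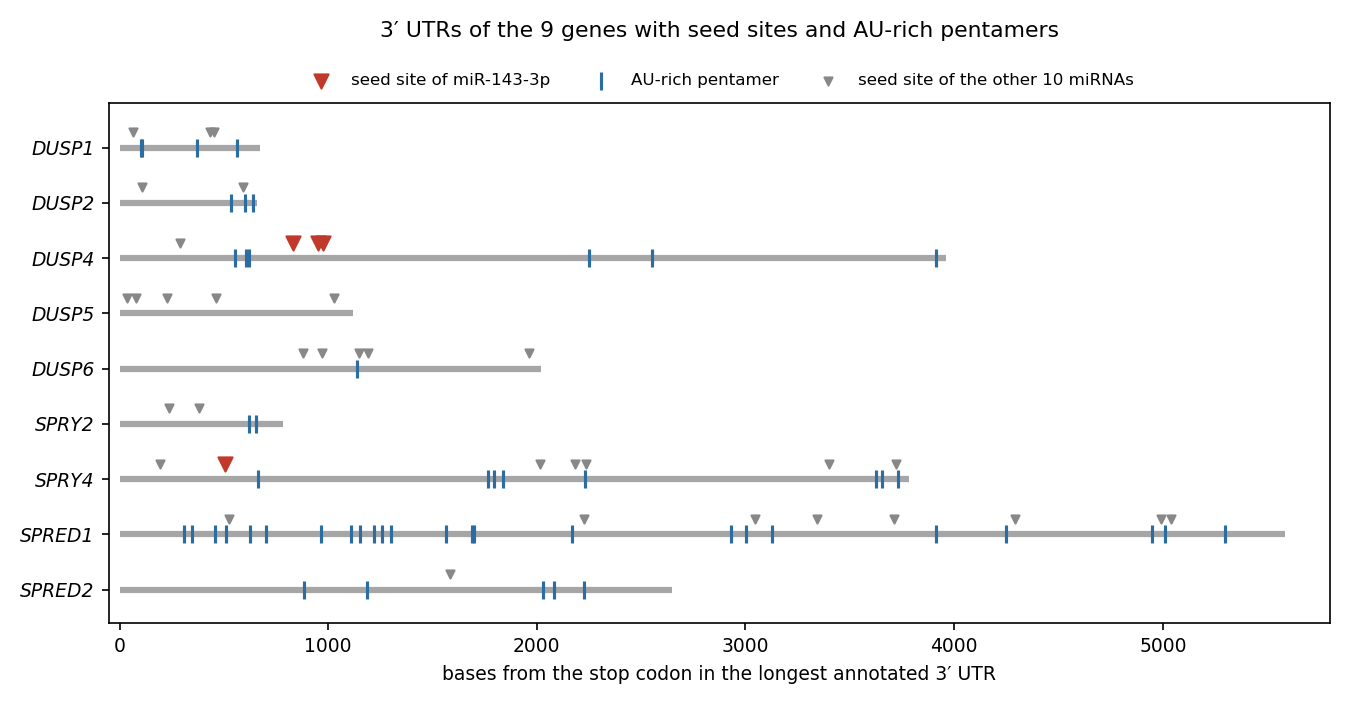
Longest annotated 3′ UTR of each gene (grey bars, bases from the stop codon) with AU-rich pentamers (blue ticks), seed sites of miR-143-3p (red triangles) and of the other 10 microRNAs (grey triangles). Red triangles stand over DUSP4 and SPRY4 only, DUSP5 has 0 blue ticks and SPRED1 has 24.

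The precipitates differed in depth and composition before any member was compared. MIR143 itself reached 118393 FPKM in miR143_AGO and 44781 FPKM in miR143_IgG and was listed at 0 in both precipitates of control cells. Rows of a single coding gene made up 7.90% (control_IgG) and 8.38% (miR143_IgG) of the summed FPKM of the mock precipitates. With the AGO2 antibody they made up 42.0% (control_AGO) and 37.2% (miR143_AGO). Despite these lower shares, the coding rows summed to more FPKM in the mock precipitates (control_IgG 223537, miR143_IgG 217521). The AGO sums were lower (control_AGO 154895, miR143_AGO 153092). Median coding levels above 0 were likewise higher in the mock precipitates, at 7.76 FPKM (control_IgG) and 4.27 FPKM (miR143_IgG). The AGO medians were 2.97 FPKM (control_AGO) and 3.23 FPKM (miR143_AGO). Read counts were not analysed here, and depth could only be read from the smallest values. The product of FPKM and transcript length has a low edge in each group, taken as the 10th lowest product above 0, which falls as more fragments are sequenced. Relative to miR143_AGO this edge was 1.09 times higher in control_AGO, 1.64 times in miR143_IgG and 12.9 times in control_IgG, so that low values are least well resolved in control_IgG. Of the erythroid markers that K562 is known for, 7 of 12 had a row of their own, and these summed to 916 FPKM in control_AGO and 1076 FPKM in miR143_AGO, against 277 FPKM in control_IgG and 412 FPKM in miR143_IgG, with the erythroid factors GATA1 and KLF1 above 0 in all groups. Of 10 markers of other cell types, 6 (CD3E, MS4A1, MPO, ELANE, COL1A2 and PECAM1) were at 0 in all groups, and the list summed to between 4.66 FPKM in control_IgG and 15.6 FPKM in miR143_IgG, mostly from ITGAM and EPCAM.

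Most of the 9 mRNAs were at low levels. Of the 36 member values 15 were 0, and the highest was 20.8 FPKM. DUSP2 and DUSP6 were listed at 0 in all groups, as were 42.6% of 17823 coding rows. SPRY2 and SPRY4 alone were above 0 in all groups. Above 0 were 4 members in each mock precipitate, 6 in control_AGO and 7 in miR143_AGO. The share of all coding rows above 0 was also higher with the AGO2 antibody. It was 48.99% in control_AGO and 51.33% in miR143_AGO, against 35.49% in control_IgG and 46.60% in miR143_IgG. The summed FPKM of the members was 38.4 in control_AGO and 19.98 in miR143_AGO, against 10.6 in control_IgG and 16.5 in miR143_IgG, and DUSP5 was the highest member in both AGO precipitates.

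**Figure D2:**
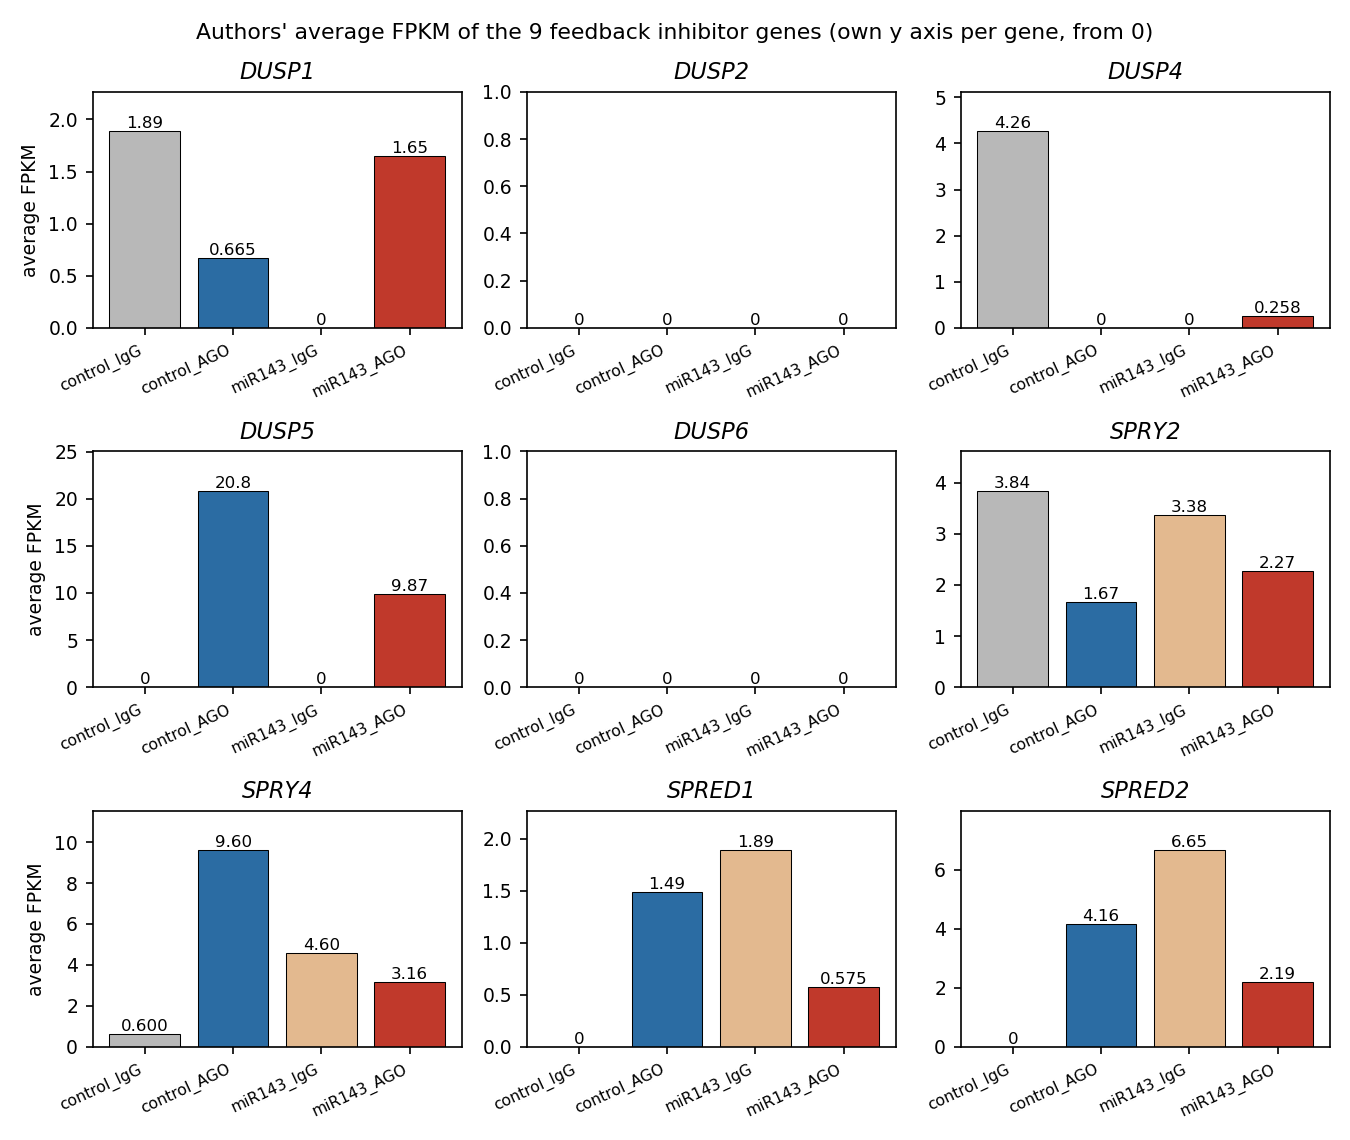
The authors' average FPKM of each gene in the 4 groups, 1 bar per group and 1 linear axis per gene starting at 0, with no error bars since replicate values were not analysed here. DUSP5 shows bars in control_AGO (20.8) and miR143_AGO (9.87) only, and SPRED1 and SPRED2 are at 0 only in control_IgG.

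The nuclear phosphatases came first. DUSP5, which is induced by ERK and acts on ERK in the nucleus, is encoded at chr10:110497838-110511544 on the plus strand. Its level was 20.8 FPKM in control_AGO and 9.87 FPKM in miR143_AGO, against 0 FPKM in control_IgG and 0 FPKM in miR143_IgG. DUSP5 was thus above 0 in both AGO precipitates and listed at 0 in both mock precipitates. It lay above 84.5% of coding rows with a value above 0 in control_AGO and above 74.2% in miR143_AGO. Its control_AGO value was 897 times the low edge of the group and its miR143_AGO value 462 times, whereas at the length of DUSP5 the low edge corresponded to 0.276 FPKM in control_IgG and to 0.0351 FPKM in miR143_IgG. Both edges lie below the AGO levels, but an exact 0 can also be a failed estimate, here and for the other members listed at 0.

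Of 8174 coding rows above 0 in both AGO groups, 7.18% were at 0 in both mock groups, and of 2281 with a mean between 5 and 20 FPKM, 1.27% were. Of 986 coding rows above 0 in both AGO groups with a mean between 10 and 20 FPKM, 9 (0.913%) were at 0 in both mock groups, while 9.23% were at 0 in control_IgG and 1.32% in miR143_IgG. Beside DUSP5 the 9 were ATAT1, FLYWCH2, PRTN3, SAMD10, SELPLG, SMPD1, SPINT1 and VPS9D1. Below this range, genes of the lists below had the same pattern, named after their values had been seen. They were the phosphatase DUSP10 (4.79 FPKM in control_AGO and 1.12 FPKM in miR143_AGO) and the ERK-induced genes FOSB, ZFP36 and PHLDA1. The range of levels was set after the value of DUSP5 had been seen, and the count is a description.

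DUSP1, an immediate early phosphatase that inactivates p38, JNK and ERK in the nucleus, lies at chr5:172768090-172771195 on the minus strand. It was at 0.665 FPKM in control_AGO and 1.65 FPKM in miR143_AGO, and at 1.89 FPKM in control_IgG and 0 FPKM in miR143_IgG. These are low levels, and the control_IgG value was only 5.40 times the low edge of that group. DUSP1 was 2.48 times higher in miR143_AGO than in control_AGO by the plain ratio. DUSP4, a related nuclear phosphatase at chr8:29333064-29350668 on the minus strand, was at 0 FPKM in control_AGO and 0.258 FPKM in miR143_AGO, and at 4.26 FPKM in control_IgG and 0 FPKM in miR143_IgG. Its highest value came from a mock precipitate, at 33.5 times the low edge, and its miR143_AGO value lay above only 11.2% of coding rows with a value above 0.

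DUSP4 was also the member with most sites for miR-143-3p, with 3 in its 3′ UTR of 3962 bases (7mer-A1 at bases 831 to 837 and 953 to 959 and an 8mer at 975 to 982). Only 3.05% of the 1739 3′ UTRs of like length had as many, whereas the shortest annotated 3′ UTR of DUSP4, of 487 bases, held 0. In the AGO precipitates DUSP4 was at 0 without the vector for miR-143 and at 0.258 FPKM with it, which is 26.1 times the low edge of miR143_AGO but below the minimum of 1 FPKM set for a comparison.

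DUSP2 (chr2:96143166-96145440, minus strand), a nuclear phosphatase of activated blood cells, was at 0 FPKM in all 4 groups. DUSP6 (chr12:89347232-89353271, minus strand), the cytoplasmic phosphatase specific for ERK, was at 0 FPKM in all 4 groups as well. The low edge at their lengths was highest in control_IgG, at 0.418 FPKM for DUSP2 and 0.160 FPKM for DUSP6, and lowest in miR143_AGO, at 0.0324 FPKM and 0.0124 FPKM. Since an exact 0 can also be a failed estimate, these genes are called listed at 0 and not absent. DUSP6 was the only member with an exon overlap, with the antisense gene AC024909.2, and whether reads were assigned by strand is not given in the sources used here.

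The Sprouty adaptors followed. SPRY4, which blocks the activation of RAF, lies at chr5:142310427-142326455 on the minus strand and holds the miR-143-3p site shown above. It was at 9.60 FPKM in control_AGO and 3.16 FPKM in miR143_AGO, and at 0.600 FPKM in control_IgG and 4.60 FPKM in miR143_IgG. In control cells the AGO value was thus 16.0 times the mock value, and in miR-143 cells it was 1.45 times below the mock value. SPRY4 was highest in control_AGO and lowest in control_IgG, and the control_IgG value was only 4.55 times the low edge, against 865 times in control_AGO, 274 times in miR143_IgG and 309 times in miR143_AGO. SPRY2 (chr13:80335976-80340951, minus strand), the Sprouty protein that binds CBL and GRB2, was at 1.67 FPKM in control_AGO and 2.27 FPKM in miR143_AGO, and at 3.84 FPKM in control_IgG and 3.38 FPKM in miR143_IgG. It varied less than SPRY4 and was lower in AGO than in IgG in both populations.

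The SPRED proteins bring neurofibromin to the membrane to switch off RAS. SPRED1 (chr15:38252326-38357249, plus strand), the gene of Legius syndrome, was at 1.49 FPKM in control_AGO and 0.575 FPKM in miR143_AGO, and at 0 FPKM in control_IgG and 1.89 FPKM in miR143_IgG. SPRED2 (chr2:65310851-65432637, minus strand) was at 4.16 FPKM in control_AGO and 2.19 FPKM in miR143_AGO, and at 0 FPKM in control_IgG and 6.65 FPKM in miR143_IgG. Both had the same order of groups, with miR143_IgG highest, then control_AGO, then miR143_AGO, and control_IgG at 0. The low edge of control_IgG corresponded to 0.0906 FPKM at the length of SPRED1 and to 0.172 FPKM at that of SPRED2.

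**Figure D3:**
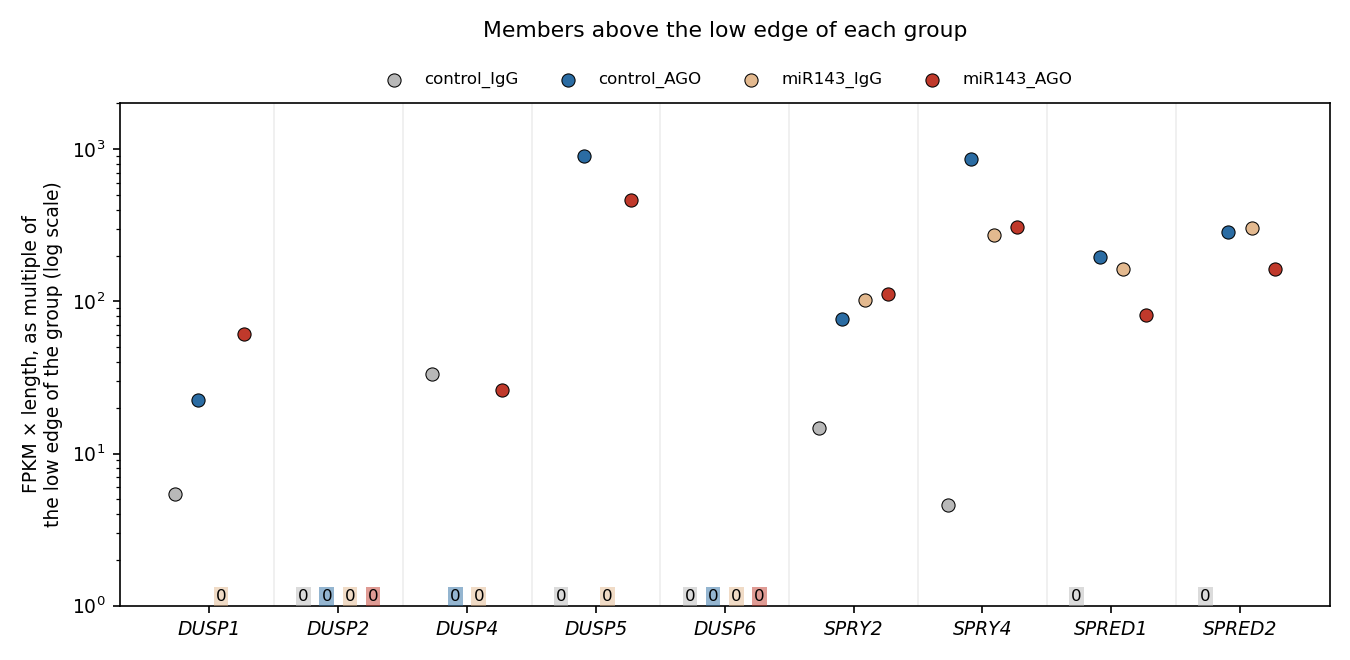
FPKM times transcript length of each gene as a multiple of the low edge of its group (logarithmic axis), 1 point per group, with shaded zeros at the bottom for genes listed at 0. The control_IgG points of DUSP1 (5.40) and SPRY4 (4.55) lie nearest the edge, and DUSP5 (897) and SPRY4 (865) in control_AGO lie farthest above it.

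To ask how miR-143 changed the AGO2-bound mRNA, miR143_AGO was set against control_AGO. Ratios are log2 of (FPKM + 1) over (FPKM + 1), which understates the change of low genes, over rows of at least 1 FPKM in at least 1 group compared. By this filter 6 of the 9 members were compared, since DUSP2 and DUSP6 were at 0 and DUSP4 was below 1 FPKM in both. SPRY4 had a log2 ratio of −1.35 (9.60 to 3.16 FPKM, 3.04 times lower by the plain ratio) and DUSP5 of −1.01 (20.8 to 9.87 FPKM, 2.11 times lower). These were the 2 members at least 2-fold lower, where 14.1% of 9798 rows were, and 0 members were 2-fold higher, where 17.7% of rows were. SPRED2 (−0.69) and SPRED1 (−0.66) were also lower, and SPRY2 (0.29) and DUSP1 (0.67) were higher, all less than 2-fold on this scale. With 0.1 FPKM added in place of 1, SPRED1 (−1.24) and DUSP1 (1.19) passed 2-fold as well, so that 3 members were lower and 1 higher. Of all rows 17.6% were then lower and 24.6% higher.

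The members' median was −0.68, beside 0.17 for all rows with an SD across rows of 1.12. SPRY4 was lower than all but 8.45% of the rows compared, DUSP5 than all but 13.9%, SPRED2 than all but 19.7% and SPRED1 than all but 20.4%. Rows at like levels also passed 2-fold often. Of coding rows with a mean between 2 and 8 FPKM in the AGO pair, as SPRY4, 9.85% were 2-fold lower, and of those between 8 and 32 FPKM, as DUSP5, 14.6%. At the 10-fold threshold of the study, with 1 FPKM added, 0 members were higher and 0 lower, where 0.286% and 0.745% of all rows were. Adding 1 FPKM makes this threshold stricter. With 0.1 FPKM added 5.83% of rows were higher and 4.73% lower, and still 0 members passed. In the AGO precipitates an mRNA bound less to AGO2 and an mRNA less abundant in the cells cannot be told apart, since no RNA of whole cells was analysed here.

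**Figure D4:**
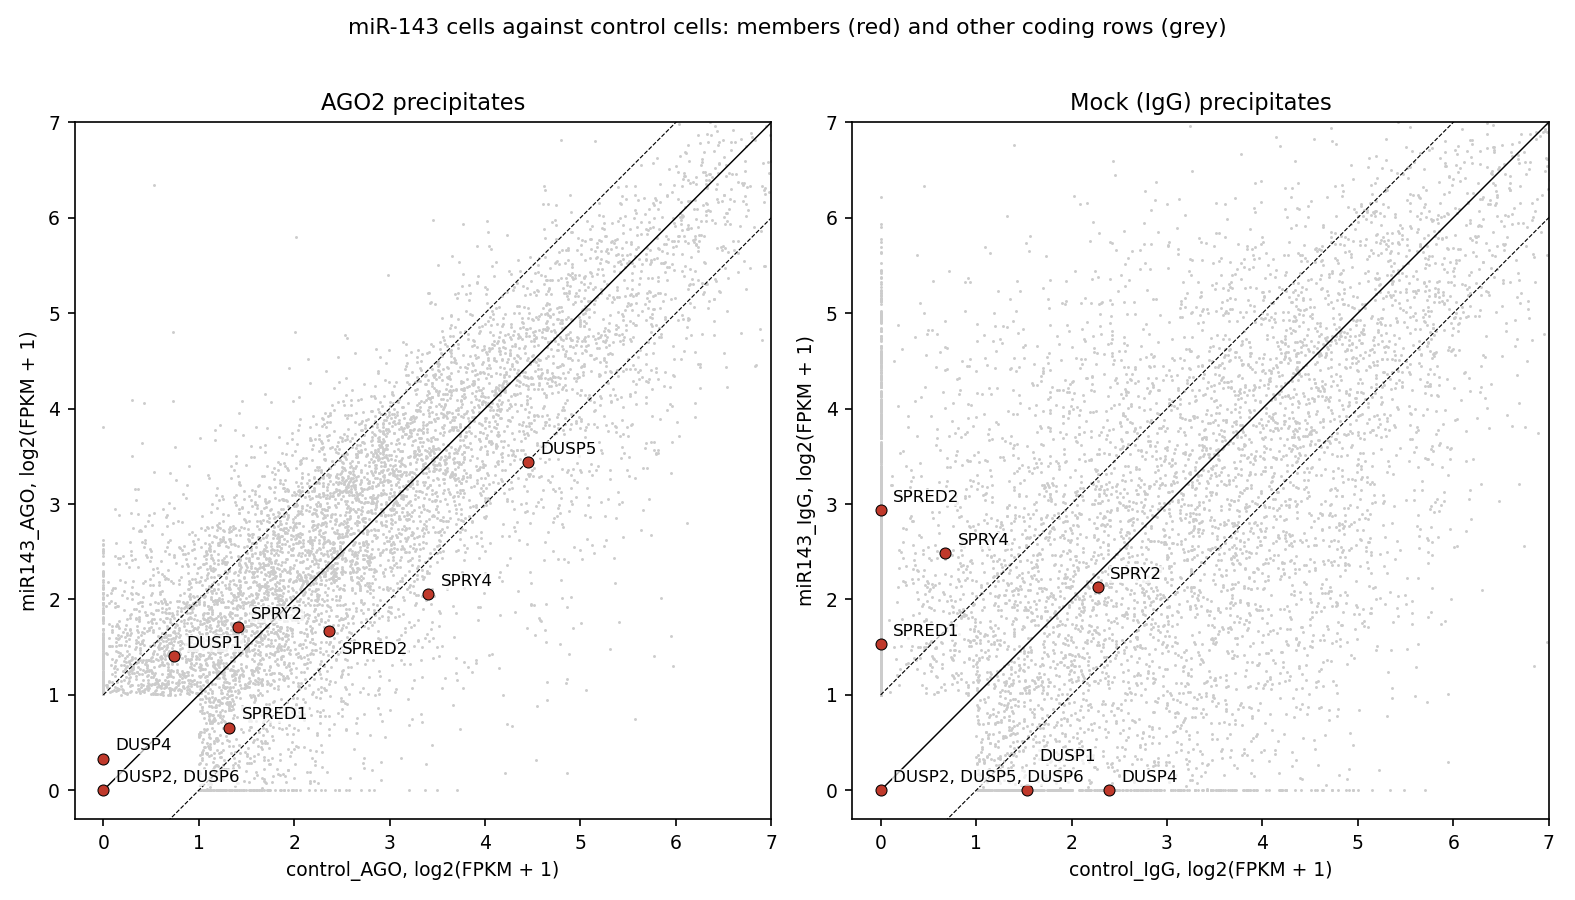
Log2(FPKM + 1) of miR-143 cells (vertical) against control cells (horizontal) for the AGO2 precipitates (left) and the mock precipitates (right), with the 9 genes in red, other coding rows of at least 1 FPKM in a group in grey, equality as a solid line and 2-fold as dashed lines. Axes end at 7, which leaves out higher grey rows. SPRY4 lies below the lower dashed line on the left (−1.35) and above the upper one on the right (1.81), and the grey cloud is wider on the right.

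The mock precipitates of the same cells served as background. Between miR143_IgG and control_IgG 6 members were compared, of which 3 (SPRY4, SPRED1 and SPRED2) were at least 2-fold higher and 2 (DUSP1 and DUSP4) at least 2-fold lower. The background was 36.2% of 10172 rows higher and 26.8% lower. Only SPRY4 passed 2-fold without a group at 0, with a log2 ratio of 1.81 (0.600 to 4.60 FPKM, 7.66 times higher). The other 4 calls rest on a value of 0 in 1 group, as 45.7% of the 2-fold rows of this pair did. SPRY2 was at −0.15, and this sign was not stable, since it was 0.07 after scaling the groups to the same median. The SD of the log2 ratio over coding rows was 1.85 here and 0.975 between the AGO groups. SPRY4 thus moved in opposite directions in the 2 pairs, and the difference between them was not tested.

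Enrichment over the mock precipitate was compared in each population. In control cells 7 members were compared, and 4 (DUSP5, SPRY4, SPRED1 and SPRED2) were at least 2-fold higher in AGO and 1 (DUSP4) lower, where 34.5% of 9919 rows were higher and 36.2% lower. After scaling to the same median the background was 42.9% higher and 26.8% lower, and the members' counts were the same. SPRY4 had a log2 ratio of 2.73, above 92.4% of the rows compared, and was the only one of the 5 without a group at 0. SPRY2 (−0.86, 2.30 times lower) and DUSP1 (−0.79, 2.83 times lower) were lower in AGO by less than 2-fold on this scale. With 1 FPKM added DUSP5 was the 1 member past 10-fold, where 4.38% of rows were, from a mock value of 0. With 0.1 FPKM added SPRY4, SPRED1 and SPRED2 passed 10-fold too, so that 4 members did, where 23.0% of rows did. All calls but that of SPRY4 rest on a value of 0 in 1 group, as did 37.5% of the 2-fold rows.

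In miR-143 cells 6 members were compared, and 2 (DUSP1 and DUSP5) exceeded their mock value at least 2-fold, both from 0. SPRED2 was the 1 member at least 2-fold lower, with a log2 ratio of −1.26 (6.65 to 2.19 FPKM). The background was 26.6% of 10643 rows higher and 33.5% lower, and with the sum of coding rows made equal it was 34.8% higher and 25.5% lower, under which SPRED2 was at −0.87 and no longer past 2-fold. SPRED1 (−0.87), SPRY4 (−0.43) and SPRY2 (−0.42) were lower in AGO as well. DUSP5 was again the 1 member past 10-fold with 1 FPKM added, where 1.6% of rows were, and with 0.1 FPKM added DUSP1 passed as well, where 11.6% of rows did. DUSP5 was the only member at least 2-fold higher in AGO in both populations, each time over a mock value of 0. The share of all rows higher in both was not computed.

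The IgG-corrected ratio divides the AGO over IgG ratio of miR-143 cells by that of control cells and so carries all 4 averages. Of 7 members compared, 2 (DUSP1 and DUSP4) were at least 2-fold higher and 4 (DUSP5, SPRY4, SPRED1 and SPRED2) at least 2-fold lower, where 29.0% of 11914 rows were higher and 33.5% lower. SPRY4, the only one of these 6 above 0 in all groups, had a corrected log2 ratio of −3.16 and a plain ratio 23.3 times lower, and 6.96% of rows were lower. This value divides by a control_IgG level of 0.600 FPKM, near the low edge. SPRY2 was at 0.44. SPRED2 passed 10-fold lower with a 0 in control_IgG, where 6.05% of rows did, and with 0.1 FPKM added SPRY4 and SPRED1 did too, where 22.3% of rows did. Of all 2-fold rows of this ratio 49.4% had a group at 0.

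Other genes of the pathway were taken from lists that name known components, by rows of a single gene. Of 11 other MAP-kinase phosphatases and Sprouty-family genes, 7 were compared in the AGO pair, with 1 at least 2-fold higher, 2 lower and a median of 0.13. Of all rows 17.7% were higher and 14.1% lower in this pair, with a median of 0.17. DUSP14 went from 3.89 to 11.5 FPKM (1.35), DUSP7, a cytoplasmic phosphatase of ERK, from 17.1 to 9.27 FPKM (−0.82), DUSP9 from 4.52 to 7.53 FPKM (0.63) and DUSP22 from 13.8 to 15.2 FPKM (0.13). The close relatives SPRY1 (at most 0.485 FPKM), SPRY3 (0 in all groups) and SPRED3 (at most 0.0819 FPKM) were near or at 0. The other members of these families thus moved in both directions.

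Of 17 genes from GRB2 to ERK, 14 were compared in the AGO pair, with 3 higher, 1 lower and a median of 0.18. Beside them 17.7% of all rows were higher and 14.1% lower. MAP2K2, which encodes the kinase MEK2, went from 168 to 47.5 FPKM (−1.80), and MAPK3, which encodes ERK1, from 13.4 to 30.8 FPKM (1.15). The adaptor GRB2 went from 12.7 to 7.83 FPKM (−0.63). Of 15 other negative regulators 8 were compared, with 2 higher, 1 lower and a median of −0.27, beside the same shares of all rows. NF1, which encodes the neurofibromin that SPRED proteins recruit, went from 8.03 to 22.7 FPKM (1.39), opposite in direction to SPRED1 and SPRED2. PPP2R1A, a scaffold of the phosphatase PP2A, went from 65.8 to 42.5 FPKM (−0.62), the RAF inhibitor PEBP1 from 28.7 to 24.2 FPKM (−0.24) and the adaptor DOK1 from 7.07 to 5.97 FPKM (−0.21).

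The ERK-induced early and delayed early genes share their induction with the DUSP and SPRY genes. Of 22, 14 were compared in the AGO pair, with 1 higher, 1 lower and a median of −0.24, where 17.7% of all rows were higher and 14.1% lower. The transcription factor FOSB went from 9.42 to 0.209 FPKM (−3.11) and CCND1 (cyclin D1) from 8.26 to 4.34 FPKM (−0.79). KLF6 went from 5.58 to 2.86 FPKM (−0.77) and ETV4 from 17.1 to 10.3 FPKM (−0.69). The 1 higher was ZFP36, from 1.12 to 4.58 FPKM (1.39), below 5 FPKM in both AGO groups. In control cells 15 of the list were compared for AGO over IgG, and 8 were at least 2-fold higher and 1 lower, with a median of 1.09. Of all rows 34.5% were higher and 36.2% lower, with a median of −0.19. That comparison shares its samples with the members' own, whose median was 1.32 over 7 genes, and 10 of the list's 20 rows were at 0 in control_IgG. The ratio of this pair also varied with level. Of coding rows with a mean of 0.5 to 2 FPKM 50.3% were 2-fold higher, with a median of 1.01. Between 2 and 8 FPKM 32.3% were, with a median of −0.14. FOSL1 (22.4 FPKM), NR4A1 (13.1 FPKM), IER3 (24.2 FPKM) and FOSB in control_AGO, all at 0 in control_IgG, were the 4 past 10-fold, named after their values had been seen.

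**Figure D5:**
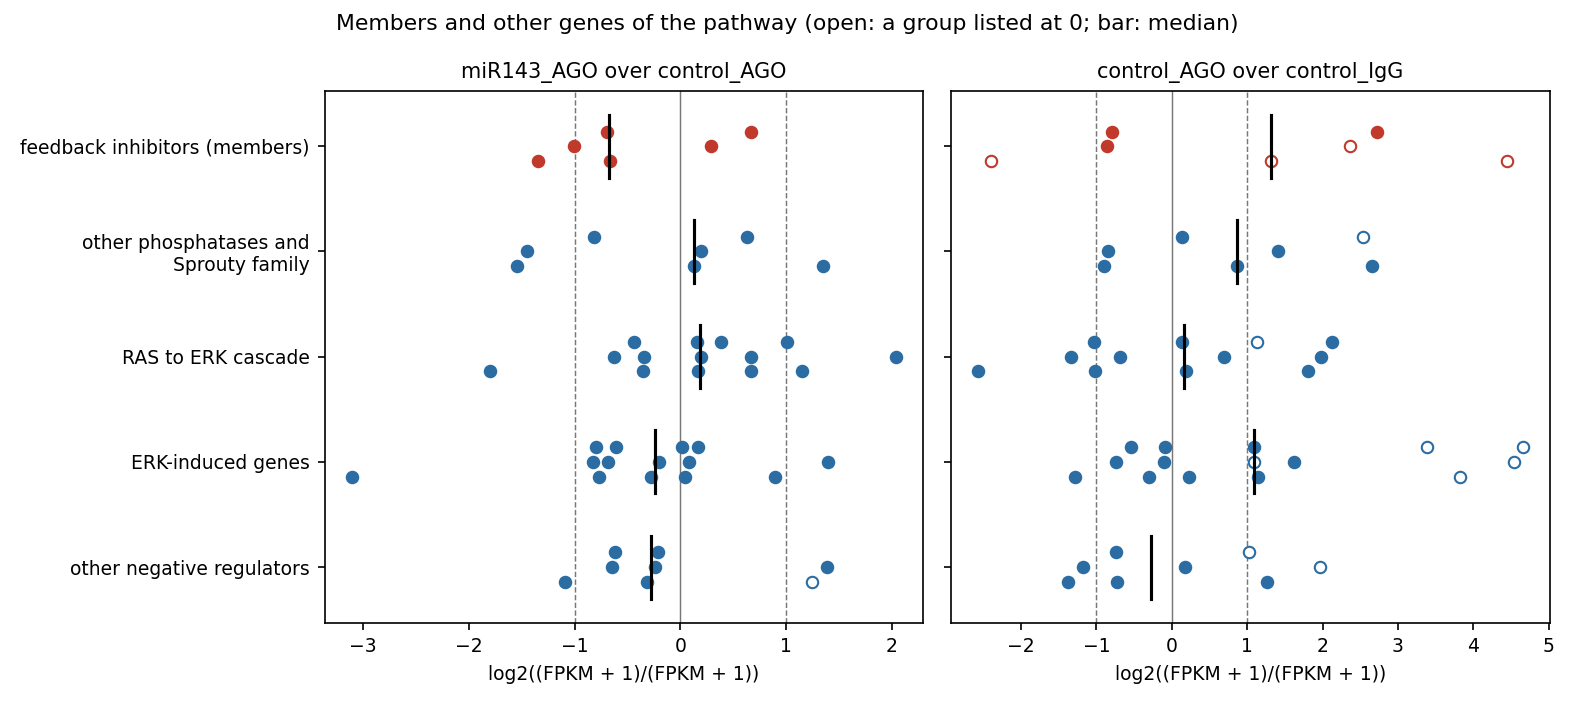
Log2 ratios, with 1 FPKM added, of the 9 genes (red) and of 4 lists of other pathway genes (blue) for miR143_AGO over control_AGO (left) and control_AGO over control_IgG (right), 1 point per gene compared, open where a group was listed at 0, with a bar at the median and dashed lines at 2-fold. The members' median lies left of the others on the left (−0.68) and right of them on the right (1.32), where 4 of 7 points are open.

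The rows most like the highest members were sought over the 4 groups by the Euclidean distance of log2(FPKM + 1) among single coding genes. Nearest to DUSP5 were VPS9D1 (0.466), ZBTB47 (0.487) and SELPLG (0.506), the P-selectin ligand of leukocytes. Nearest to SPRY4 were SLC25A22 (0.285), AEBP1 (0.523) and ASPSCR1 (0.650), and nearest to SPRED2 were ANO10 (0.231), GTF2H1 (0.309) and DDX55 (0.330). SLC25A22 followed SPRY4 with 9.21 FPKM in control_AGO, 3.64 FPKM in miR143_AGO, 4.58 FPKM in miR143_IgG and 0.363 FPKM in control_IgG. Within 0.5 log2 units lay 2 rows for DUSP5, 1 for SPRY4 and 8 for SPRED2. The likeness rests on 4 averages and says nothing of shared control.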

How the data were processed

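AGO2 and mock (IgG) precipitates of K562 cells were sequenced in 4 groups of 3 samples, grouped by the sample titles. The authors deposited 4 tables of average FPKM, 1 per group, made with TopHat and Cufflinks on hg38 per the submitters' processing notes. Versions, annotation and strand setting are not given in the sources used here. The labels describe removal of ribosomal RNA, whereas the methods name a TruSeq kit. FPKM divides by the fragments of a library, so that abundant RNAs lower all other values.

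Ratios were log2((FPKM + 1)/(FPKM + 1)) over rows of at least 1 FPKM in at least 1 group compared, with thresholds of 2-fold and the 10-fold of the study. The design had foreseen limma for replicate values, and its form for averages, without a test, was used. Percentiles of levels are among rows of a single coding gene. Transcript lengths (longest transcript), 3′ UTRs and coordinates came from GENCODE 29 by symbol, which may not be the authors' annotation. The low edge was taken over rows whose gene has 1 transcript. Since values are averages, it follows the deepest library of a group.

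Named genes are the 9 members, of each list up to 4 genes with the largest AGO-pair ratio at 5 FPKM or more in an AGO group, and the 3 nearest rows of the 3 members with the highest mean. The named erythroid and other markers were GYPB (387 to 572 FPKM between the AGO groups), TAL1 (30.1 to 18.6), LMO2 (96.4 to 49.8) and ITGAM (10.7 to 13.0). Exceptions are stated, and a few genes that this rule names are not reported here. The members, lists and tests were chosen with earlier results of these data known. Alternatives were pseudocounts of 0.1 and 0.01, no filter or a mean of 5 FPKM, scaling of groups to the same median, upper quartile or coding sum, summing of rows with one name, thresholds of 1.5-fold and 10-fold, other ranks for the low edge and the shortest 3′ UTR. Calculations used Python 3.11.15, numpy 2.4.6, pandas 2.3.3 and matplotlib 3.10.9, and the ratio counts and site search were tested on simulated data.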

Additional observations from a re-analysis of the deposited data

Results flagged for a closer look

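SPRY4 moved in opposite directions in the AGO and the mock precipitates. Its log2 ratio of miR-143 over control cells was −1.35 between the AGO groups and 1.81 between the IgG groups. SPRED2 was higher in AGO than in IgG in control cells, by 4.16 FPKM, and lower in miR-143 cells, with a difference of −4.47 FPKM. Neither difference was tested, because each group has 1 average, and both rest on the control_IgG value (0.600 FPKM for SPRY4 and 0 for SPRED2), the group with the highest low edge.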

How the results depend on the processing

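No paired analysis was possible because each table gives averages over the 3 samples of a group, and fits without single replicates were not run for that reason. Of 229 recomputed log2 ratios of single members, 218 stayed on their side of 2-fold, 11 crossed it and 0 reversed a call. Part of the 218 could not move, since a filter leaves a member's ratio unchanged and each member has 1 row. These were 32 ratios with no filter, 5 with a mean of at least 5 FPKM and 32 with rows of one name summed. The DUSP5 and SPRY4 values of the AGO pair stayed 2-fold lower under every pseudocount and scaling tried, from −1.22 to −1.002 and from −1.60 to −1.35. With a pseudocount of 0.1 or 0.01, 3 members were 2-fold lower in AGO than in IgG of control cells (1 as reported). In cells with miR-143 2 members were (1). In the AGO pair 1 member, DUSP1, was higher (0) and 3 were lower (2). SPRED1 was at −1.24 and −1.36 in place of −0.66. With a pseudocount of 0.1, 39.8% of all rows were lower in control cells and 37.5% in cells with miR-143. In the AGO pair 24.6% of all rows were higher and 17.6% lower. With a mean of at least 5 FPKM, 2 members were compared in control cells (2 higher, 0 lower). With miR-143 and in the IgG pair 0 were compared (0 higher, 0 lower in each), since most members are below that level. For the corrected ratio 1 was compared (0 higher, 1 lower). Of all rows 24.1% were then higher and 44.3% lower in control cells, and 29.3% and 29.4% for the corrected ratio. With equal coding sums 0 members were lower in miR-143 cells, where 25.5% of all rows were. At 10-fold the counts were 1 higher and 0 lower in control cells, where 4.38% and 4.98% of all rows were. With miR-143 they were 1 and 0 (1.60% and 3.67% of all rows), and in the AGO pair 0 were lower (0.745%). In the IgG pair they were 0 and 0 (5.71% and 3.16%), and for the corrected ratio 0 and 1 (4.29% and 6.05%). With a pseudocount of 0.1 or 0.01, chosen for this threshold after seeing the data, these became 4 and 1 in control cells, 2 and 0 with miR-143, 2 and 2 in the IgG pair and 2 and 3 for the corrected ratio, while 0 members passed in the AGO pair. At 1.5-fold, 3 were lower in control cells, 2 with miR-143, and 1 was higher and 4 lower in the AGO pair. Of all rows 43.8% were lower in control cells and 42.5% with miR-143. In the AGO pair 32.2% of all rows were higher and 22.6% lower at this threshold. Scaling to the same median moved the median over all rows from 0.17 to −0.02 in the AGO pair, from −0.19 to 0.50 for control_AGO over control_IgG and from 0.17 to 0.43 in the IgG pair. The low edge of miR143_IgG relative to miR143_AGO was 0.831 by the lowest product in place of 1.64. The 3 sites of DUSP4 fell to 0 with the shortest 3′ UTR. The causes were not tested.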

Other observations

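The erythroid markers, which the comparisons of the members do not use, were described in the same way. Of the 7 with a row of their own, 5 exceeded the mock value of control cells at least 2-fold in AGO and 0 were as far below it, with a median log2 ratio of 1.99, where 34.5% of all rows were higher and 36.2% lower with a median of −0.19. In miR-143 cells 4 were higher and 1 lower, with a median of 1.25, where 26.6% of all rows were higher and 33.5% lower with a median of −0.22. The other 5 markers lie in rows joined to other genes, which these counts leave out. In control cells the AGO over IgG log2 ratio was −1.43 for the row of HBZ and −3.19 for that of EPOR. The row that holds HBG1, HBG2 and HBE1 was at 0.44. In miR-143 cells these rows were at −1.04, −1.32 and 1.19. KLF1, the erythroid factor that drives globin genes, had AGO values of 281 FPKM in control_AGO and 289 FPKM in miR143_AGO and mock values of 41.9 FPKM in control_IgG and 42.8 FPKM in miR143_IgG.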
